A study of Mus musculus with 50 samples.

Results

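The variants described here are those called in 2 or more tumours on chromosomes 14, 16, 17, 18 and 19, with the immunoglobulin lambda locus of chromosome 16 left out. They were chosen by chromosome and by the number of tumours that carry them, and 1492 of the 25624 variants with 1 alternate allele qualified, which is 11.55% of the 12919 shared ones. Chromosome 16 held 1053 of them, chromosome 17 held 136, chromosome 14 held 108, chromosome 18 held 101 and chromosome 19 held 94. The study sequenced exomes of malignant plasma cells in mesenteric lymph nodes of mice with the genotype IL6Myc, and kidneys of wild-type Balb/c mice. Calls were analysed for 44 of the 45 tumours, numbered 1 to 45 by accession, with no column for tumour 4 and none for the 5 kidneys. The labels give neither strain, age nor treatment of the tumour-bearing mice, and nothing on the promoters of the transgenes. Tumours carry title numbers of 3 series, 1601 to 1628 (22 tumours, numbers 24 to 45), 1501 to 1592 (18 tumours, numbers 6 to 23) and 1199 to 1293 (4 tumours, numbers 1, 2, 3 and 5). What the title numbers stand for is not stated. Positions are on the mm10 build.

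As background, variants that lie on the same copy of a chromosome are inherited together until a crossover parts them, so linked inherited variants form runs with 1 set of carriers and sharp edges. Variants that arise separately in tumours do not as a rule form such runs. A variant on one of the paired copies is read in close to an even share of reads, a variant on both copies in nearly all reads. Low shares occur where few cells carry a variant, or where reads of similar sequences are placed together. Whether any variant below was inherited or arose in a tumour was not tested.

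The sequences that follow show what shared variants of chromosomes 14 and 16 change near start sites of genes, in windows of 29 bases centred on the variant. They are read in the direction of the gene from RefSeq (GRCm38.p6), with the reference base of the variant in capitals. Of 1123 single-nucleotide variants (SNVs), 20 sites fell in RefSeq promoter windows of 250 bases before to 50 after a start, and the reference base matched in all 22 windows tested. The windows shown are a selection, of variants carried by 5 to 17 tumours at median read shares of 45.1 to 60%. Other windows within these limits, such as that of 0610012G03Rik, are not shown.
Acin1: catccgcacacacgGgctgctgggtaagt
Fyttd1: ggcgcgcgtgcgcgCtctgcgctgcagct
Ccdc58: ggcaagagaaatgaGtcctttgggcagat
Stfa2: aaaaccctgagtctCtatgcttgctggat
Cep97: gtagccagcaagtcCcatcagggagccaa
Rpl24: gaaacagactgggcGctcggaagtgacat
Rcan1: gggctggctctccgCggagctttttaagc
Acin1, which encodes an apoptosis- and splicing-associated nuclear protein, had a G-to-A change at 54653688 of chromosome 14 in 17 tumours. Fyttd1, an mRNA export adaptor, had a C-to-G change at 32877798 of chromosome 16 in 8 tumours, and the same site lies 69 bases before the start of Rubcn on the other strand. Ccdc58 (36081278, G to C) and Rpl24 (55966290, G to T), a protein of the large ribosomal subunit, were each changed in 13 tumours just after the start. Stfa2, a stefin, was changed 12 bases before its start at 36408375 in 13 tumours (C to T). Cep97, a centrosome protein, was changed at 55934928 in 10 tumours (C to T). Rcan1, a regulator of calcineurin, had a C-to-A change at 92400112 and a second change at the adjacent base, both in 5 tumours.

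A further set shows the longer in-frame changes of coding sequence, which a protein change written in letters does not convey. The bases are those of the reference strand as the deposited table gives them, all in capitals because all are inserted or deleted.
Zbtb11 (inserted): GAGCTC
Sfr1 (deleted): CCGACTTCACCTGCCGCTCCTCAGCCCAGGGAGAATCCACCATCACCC
Prdm9 (deleted): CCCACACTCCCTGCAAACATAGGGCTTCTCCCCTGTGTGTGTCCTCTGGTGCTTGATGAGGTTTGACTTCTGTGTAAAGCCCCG
Zfp948 (deleted): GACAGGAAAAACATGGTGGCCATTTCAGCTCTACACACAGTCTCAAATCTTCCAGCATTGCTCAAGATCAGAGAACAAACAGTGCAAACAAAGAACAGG
The insertion after 55990740 of chromosome 16 adds 2 residues to the zinc finger protein Zbtb11 and was called in 13 tumours. The 48 bases lost from Sfr1 (47732869 to 47732916 of chromosome 19) remove 16 residues of this partner of the recombination factor Swi5. The 84 bases lost from Prdm9 (15544036 to 15544119 of chromosome 17) remove 28 residues of the repeated zinc finger array of this meiotic histone methyltransferase. The 99 bases lost from Zfp948 (21587011 to 21587109 of chromosome 17) remove 33 residues. Zbtb11, Prdm9 and Zfp948 were chosen after their values were seen, as were the genes of the promoter windows.

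The shared variants were mostly non-coding. Of the 1492, 922 were intronic, 210 intergenic, 137 synonymous, 83 missense, 59 in a 3' UTR, 26 in a splice region and 16 in a 5' UTR. In-frame deletions numbered 5, and an in-frame insertion, a frameshift, a stop gain and a stop loss were called once each in the set. Insertions and deletions (indels) made up 369 members, or 24.7%. Carriage was 2 to 5 tumours for 827 members, 6 to 22 for 639 and over 22 for 26, and 8 were called in all 44 tumours. On the other chromosomes, 13.4% of 11277 shared variants (antibody loci left out) were called in over 22 tumours. Carrier count is part of how the members were chosen, so nothing is read from that contrast. Just outside the limit of 2 tumours lay 1803 variants of these chromosomes called in 1 tumour, against 286 called in 2 and 144 in 3.

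The members were then grouped into segments. Neighbours at most 5 Mb apart were joined where the sets of tumours that carry them overlapped by at least 0.7 of their union (the Jaccard index), and groups of 5 or more members were kept. A tumour counts as a carrier where at least 50% of a segment's members were called in it. This gave 12 segments with 902 members (60.5%), and 8 of the segments, with 831 members, lay on chromosome 16. Segments may overlap in position because each is defined by its carriers. Inside segments 15.9% of members were indels, against 38.3% of the 590 members outside. Of the calls, 0.453% had a read share under 20% inside segments, against 15.7% outside.

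**Figure D1:**
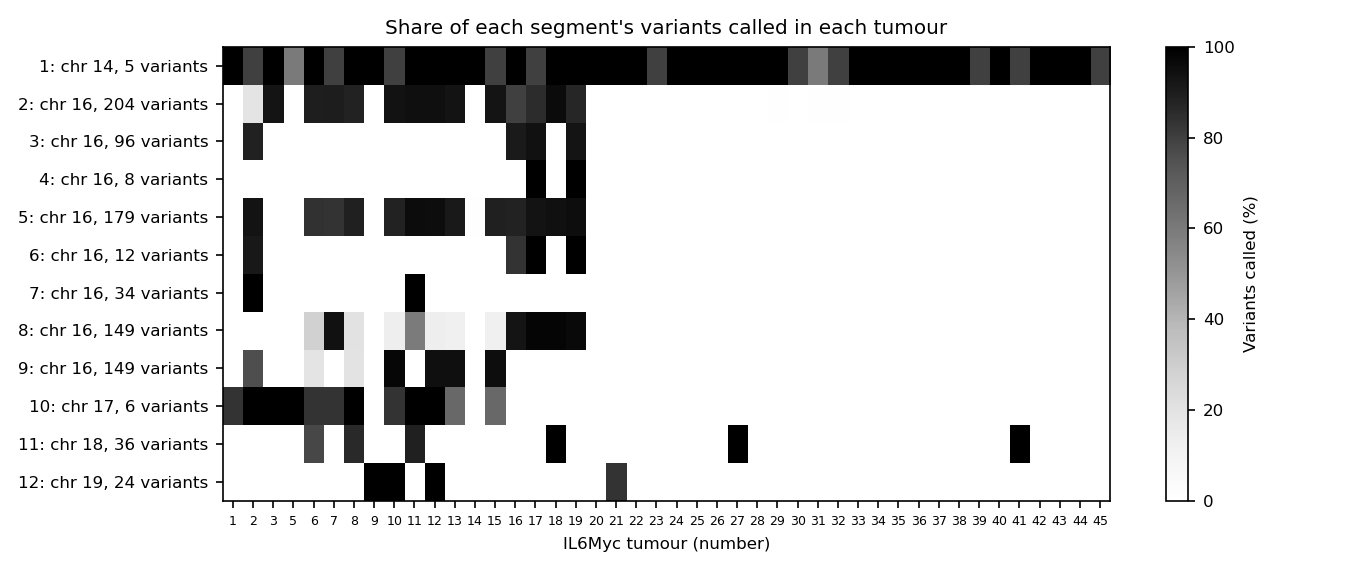
Share (%) of each segment's variants called in each of the 44 tumours, with segments in rows by chromosome and tumours in columns by number; darker cells mean more of the variants were called. Segment 1 is dark in every tumour, the chromosome 16 segments are dark only among tumours 2 to 19, and segment 11 also in tumours 27 and 41.

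Chromosome 16 divided the tumours. A block was called in a tumour where at least 10 members carried by at most 22 tumours lay no more than 5 Mb apart. Such blocks were found in 14 tumours (2, 3, 6, 7, 8, 10 to 13 and 15 to 19), which had 227 to 658 calls on chromosome 16, with a median of 554.5. The 30 tumours without blocks had 4 to 13 calls, with a median of 7.5. No tumour fell between 13 and 227 calls, so the groups do not overlap, but the blocks are defined by these calls. On the other 4 chromosomes the tumours with blocks had 53 to 114 calls (median 68) and those without had 37 to 91 (median 52), so there the ranges overlap. Variants called in 1 tumour only, which the blocks do not use, numbered 8 to 40 per tumour on chromosome 16 with blocks (median 17.5) and 0 to 13 without (median 5.0). Blocks were found in 0 of 22 tumours with titles 1601 to 1628, 12 of 18 with titles 1501 to 1592 and 2 of 4 with titles 1199 to 1293. The contrasts between tumours with and without blocks are thus in part contrasts between title series. Whether the variants called in 1 tumour lay inside the blocks was not examined.

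**Figure D2:**
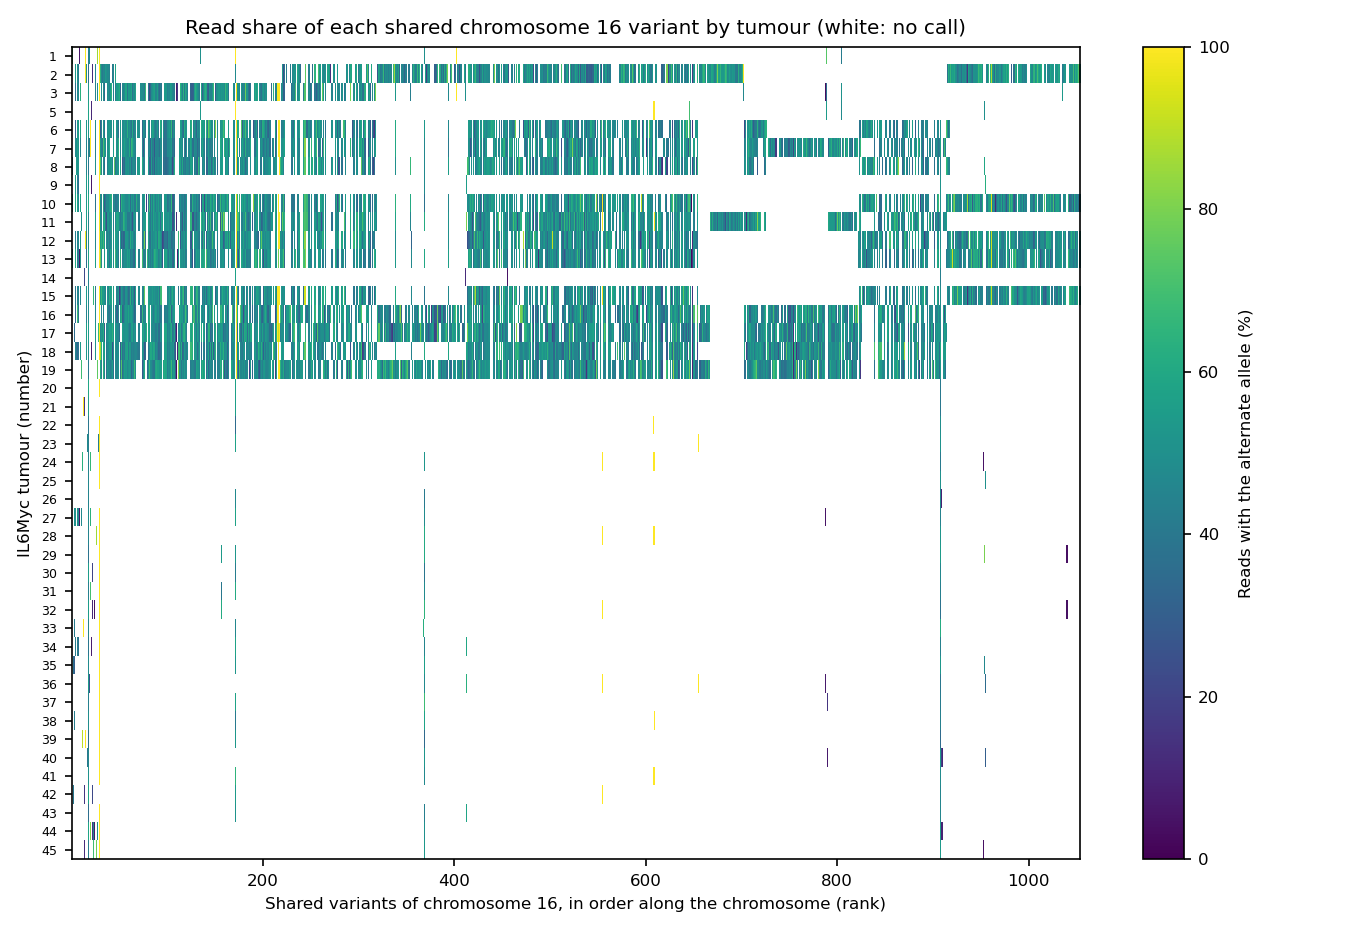
Read share (% of reads with the alternate allele, colour) of the 1053 shared variants of chromosome 16, in order along the chromosome (horizontal axis, rank), for each tumour (rows, by number); white means no call. The 14 tumours with blocks show dense runs at shares near 50%, with edges that many of them have in common, and the other 30 rows are nearly empty.

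The edges of the blocks recurred. The first block began at 31110723 in 11 of the 14 tumours, at 31136466 in tumours 3 and 16, and at 27926002 in tumour 17. The start in tumour 17 rests on a single member of no segment, and the next edge there was again 31110723. In tumour 3 the first block was the only block, and it ended at 38788175. In tumours 2, 16, 17 and 19 the first block ran without a gap of over 5 Mb to 62907467. In tumour 2 it was sparse at first, with 39 of the 204 members of segment 2 (31110723 to 38685325) called. Tumours 16, 17 and 19 had 163, 174 and 177 of these. Over most of that stretch the only member called in tumour 2 was one in 22 tumours, among them tumours without blocks. In the other 9 tumours the first block stopped between 38685325 and 38788178, and a second block began at 45555704 and ended at the same 62907467. Beyond that edge, tumours 2, 16, 17 and 19 had a block that began at 68510879 or 68510943 and ended at 72983870, and tumours 2 and 11 one that began at 78117445 and ended by 79914928. The last block began at 85457416 in tumours 6, 7, 8, 11 and 16 to 19, at 90554695 or 90719890 in tumours 10, 12, 13 and 15, and at 91562689 in tumour 2. It reached 98067148, the last member of the chromosome, in tumours 2, 10, 12, 13 and 15. Median read shares of the 42 blocks ran from 45.0 to 54.38%, so no block was at a low share or at nearly all reads.

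Segment 2 covered 31110723 to 38685325 with 204 members, of which 178 were SNVs, and 13 tumours carried it (3, 6, 7, 8, 10 to 13 and 15 to 19). The median read share of its SNVs per carrier was 48.0% at the lowest, 50% at the median and 50% at the highest (mean 49.3 ± 0.828%, SD, n = 13). Tumour 2 was called at 19.1% of its members, and the median of the other tumours was 0. Its 12 protein-altering members fell in 8 genes, among them Bex6, Golgb1, Muc4, Parp14, Senp5, Timmdc1 and Tnk2. Golgb1 (giantin, a Golgi tether) had the changes p.Lys709Glu, p.Ala806Thr and p.Thr2702Met and was altered in 14 tumours, tumour 2 included. Timmdc1, an assembly factor of respiratory complex I, had a missense change in the same 14 at 29.47 to 56.16% (median 43.1). The mucin gene Muc4 had p.Arg2615Gln in 13 tumours at 39.47 to 70.37% (median 48.48) and p.Lys3050Gln in 11 at 39.73 to 55.88% (median 47.3). Parp14, a mono-ADP-ribosyltransferase that acts with Stat6 in interleukin 4 signalling, had p.Leu727Gln and p.Tyr507Cys in 13 tumours, with medians of 51.43 and 50%. Its values were seen before it was chosen, as were those of Senp5 (a SUMO protease) and Tnk2 (a non-receptor tyrosine kinase), both altered in the same 13.

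Segment 5 covered 49884282 to 62907467 with 179 members and also had 13 carriers (2, 6, 7, 8, 10 to 13 and 15 to 19), so that it differs from segment 2 by tumour 2 in place of tumour 3. In each carrier the first and the last call were those of the segment itself. Read shares per carrier were 47.5, 48.6 and 50% at the lowest, median and highest (mean 48.8 ± 1.01%, SD, n = 13). Its 10 protein-altering members lay in 6 genes, Abi3bp, Cep97, Olfr186, St3gal6, Trmt10c and Zbtb11. St3gal6, a sialyltransferase, had the only stop loss, p.Ter330Glnext*2 at 58470649, in all 13 carriers at 40.38 to 57.41% (median 45.24). The same 13 tumours had p.Thr234Ile in St3gal6 at 36.84 to 59.26% (median 47.17). Abi3bp, an extracellular matrix protein, had p.Pro820Gln in 12 tumours (35.14 to 58.21%, median 45.735) and p.Arg716Gln, a member of no segment, in tumours 6, 10, 15 and 19 (44.44, 53.41, 52 and 42.86%). Cep97 and Zbtb11 were chosen after their values were seen. Cep97 had 4 missense members in 11 tumours each, which together touched 12 tumours, and Zbtb11 the insertion shown above at 34.43 to 59.09% (median 47.06).

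Segments 3, 4 and 6 were carried by subsets of tumours 2, 16, 17 and 19. Segment 3, with 96 members from 36577547 to 45680579, had read shares of 46.5, 45.4, 48.7 and 49.6% in tumours 2, 16, 17 and 19. These tumours carried it at 88.5 to 93.8% of its members, and every other tumour was at 0. It spans the gap that the other 9 tumours with 2 proximal blocks show between those blocks. Its 6 protein-altering members fell in 4930435E12Rik, Arhgap31, Tigit and Zbtb20, all chosen after their values were seen. Tigit, an inhibitory receptor of T and natural killer cells, had a missense change at 47.83, 60.42, 44.78 and 51.85% and another at 56.36, 56.52, 56 and 49.12% in the same order of tumours. Zbtb20, a transcriptional repressor found in plasma cells, had a missense change at 44.87, 47.17, 47.69 and 60.29%. Segment 4 (8 members, tumours 17 and 19) and segment 6 (12 members, tumours 2, 16, 17 and 19) held 0 and 1 protein-altering members. Segment 7, from 78117445 to 79914536, had all of its 34 members called in tumours 2 and 11, at median shares of 54.4 and 46.5%, and none in any other tumour.

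Beyond 85457416 the carriers parted into sets. Segment 8 (149 members, 85457416 to 91228168) was carried by tumours 7, 11 and 16 to 19, at 46.7, 52, 48.4, 47.6, 48.9 and 48.2% (mean 48.6 ± 1.82%, SD, n = 6). Segment 9 (149 members, 90726246 to 98067148) was carried by tumours 2, 10, 12, 13 and 15, at 52.6, 48.9, 48.9, 48.8 and 48.7% (mean 49.6 ± 1.68%, SD, n = 5). Tumour 11 had 59.7% of the members of segment 8, against 92.6 to 98.0% in its other carriers, and tumour 2 had 75.8% of segment 9, against 94.6 to 97.3%. All 11 carriers sit close to an even split and no tumour carries both segments. Tumours 6 and 8 carried parts of each, with 28.2 and 20.1% of segment 8 and 18.8 and 19.5% of segment 9. The 351 members of this stretch in at most 22 tumours were then split by 2 sets of tumours. The first set is 7, 11 and 16 to 19, the second 6, 8, 10, 12, 13 and 15. Called in some or all of the first set and in none of the second were 123. The reverse held for 167, of which 119 were also called in tumour 2. Called in tumours of both sets were 50, among them 17 in all 12 tumours, and in neither set were 11. These sets were drawn after the calls were seen, and so describe the calls without testing them.

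Among the genes of this stretch, Eva1c and Urb1 followed these sets, whereas 4932438H23Rik, Adamts5 and Adamts1 had carriers in both. Ttc3 was called in part of the second set and in tumour 2. All were chosen after their values were seen. Eva1c, a transmembrane protein with lectin domains, had p.Thr347Arg at 50, 58.33, 61.54, 60, 40 and 46.15% in tumours 7, 11 and 16 to 19. Urb1, a ribosome biogenesis factor, had p.Val551Asp at 53.62, 47.83, 53.45, 51.72, 41.94 and 47.92% in tumours 6, 8, 10, 12, 13 and 15. The carriers of the 2 variants do not overlap, although the sites lie close together, at 90904197 and 90787441. Further along, at 91056000 and 91056186, 4932438H23Rik had p.Ile83Val and p.Ser21Pro in all 12 of these tumours. Adamts5, a metalloprotease, had p.Thr326Lys in 8 tumours (6, 7, 8, 11 and 16 to 19) at 34.48 to 61.11% (median 51.92). Its neighbour Adamts1 had p.Ser425Thr in 7 of these, without tumour 8, at 38.71 to 63.64% (median 46.43). Ttc3, a ubiquitin ligase in segment 9, had p.Val1603Ala in tumours 2, 10, 12, 13 and 15 at 61.84, 44.59, 49.21, 38.89 and 55.56%.

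The remaining altered genes of the chromosome 16 blocks, also chosen after their values were seen, followed the carriers of their segment where they lay in one. In segment 8, Ltn1, a ubiquitin ligase of ribosome quality control, had p.Ala1042Pro in tumours 7 and 16 to 19 at 43.68, 36.49, 37.93, 38.60 and 36.84%, below an even split in each. Usp16, a deubiquitinase of histone H2A, had a missense change in the same 5 tumours at 40.63 to 55.56% (median 45). The kinase gene Hunk had p.Thr697Ile in tumours 7, 11 and 16 to 19 at 40.91 to 60% (median 49.65), and Scaf4 had p.Val1191Ala in these 6 at 34.78 to 53.85% (median 45.725). In segment 9, Pigp, which takes part in the synthesis of the GPI anchor, had a missense change in tumours 2, 10, 12, 13 and 15 at 63.89, 61.94, 54.05, 56.56 and 62.50%, above an even split in each. The other missense member of Pigp, at 94370417, was at 65.22, 35.71, 39.29 and 62.50% in tumours 2, 10, 13 and 15, so it lay on both sides of an even split. Gbe1, the glycogen branching enzyme in segment 6, had a missense change in tumours 2, 16, 17 and 19 at 50, 50.88, 48.15 and 46.15%. Olfr19, at 16673523 and outside the blocks, had a missense change in 13 tumours at 36.92 to 56.34% (median 52.94), among them tumour 9, which had no block.

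**Figure D3:**
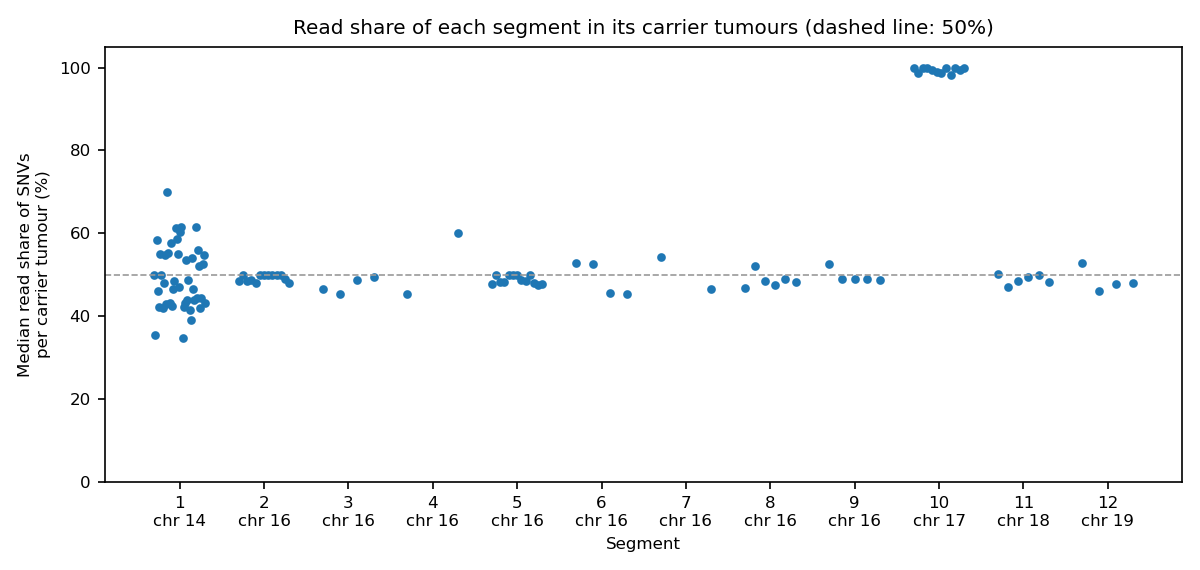
Median read share (%) of the SNVs of each segment in each carrier tumour (points), by segment, with a dashed line at 50%. Points of segments 2 to 9, 11 and 12 lie between 45.3 and 60%, those of segment 10 between 98.3 and 100%, and the 44 points of segment 1, which rest on 2 SNVs in 34 tumours and on 1 in 10, spread from 34.69 to 70%.

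Segment 10 lay in the class I region of the major histocompatibility complex on chromosome 17, whose H2-Q genes encode the non-classical class I antigen Qa-2 and related chains that present peptides. It held 6 SNVs from 35424901 to 35448462 and had 12 carriers (1, 2, 3, 5 to 8, 10 to 13 and 15). Read shares per carrier were 98.3, 99.8 and 100% at the lowest, median and highest (mean 99.5 ± 0.655%, SD, n = 12), apart from every other segment. A missense change written for both H2-Q7 and H2-Q9 was called in 12 tumours at 95.1 to 100% (median 99.515). In H2-Q6 and H2-Q8, a missense change was called in 11 tumours at 99.31 to 100%, whereas another was called in 12 tumours at only 14.14 to 35.05% (median 27.33). These genes are near-identical paralogues and the table writes their variants for pairs of genes, so which copy the reads came from is uncertain. Of the 12 carriers, 10 (83.3%) also had chromosome 16 blocks, which is 71.4% of the 14 tumours with blocks, and blocks were found in 31.8% of all 44 tumours. The same count was 4 of 6 carriers for segment 11 (66.7%) and 2 of 4 for segment 12 (50%), and no test was made of these overlaps. Segment 10 and the blocks were each found in 0 of 22 tumours with titles 1601 to 1628, which the 31.8% includes. The overlap of segment 10 with the blocks is thus in part a contrast between title series. Outside segments, SNVs at 34145254 and 34145257 near the start of H2-DMb2, a chain of the peptide loader of class II molecules, were called in 6 and 7 tumours at 9.38 to 20.83%.

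Segment 11 lay on chromosome 18 from 36668778 to 37423037, across the protocadherin clusters, whose genes encode adhesion molecules of neurons. At least 28 of its 36 members were called in tumours 6, 8, 11, 18, 27 and 41, at 50.3, 46.9, 48.5, 49.4, 50 and 48.2% (mean 48.9 ± 1.26%, SD, n = 6). Tumours 18, 27 and 41 had 36 of 36 calls, and tumour 6 the fewest, 28. Wdr55, a WD-repeat protein, had a missense change in these 6 tumours at 45.45 to 55.56% (median 51.92), and Pcdha1 had p.Ala594Thr at 44.6 to 57.75% (median 54.86). Pcdhb8 (by 2 missense changes) and Pcdhb9 (by 1) were altered in 5 of them, without tumour 6. Pcdhb9 also had 2 missense changes in tumours 8 and 41 only. Pcdhb10 was altered in 12 tumours by 2 variants that never met. The first was in the 6 carriers at 45.45 to 52.15% (median 47.34), and the other in tumours 1, 2, 7, 9, 10 and 14 at 42.73 to 52.22% (median 48.605). Protocadherin genes resemble each other, and how their reads were placed was not tested. Neto1, an auxiliary subunit of kainate receptors, had a missense change in tumours 1 and 5 at 34.62 and 53.03%.

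Segment 12, of 24 members from 50168556 to 50287968 of chromosome 19, was annotated to Sorcs1, a sorting receptor, in all 24. Tumours 9, 10, 12 and 21 carried it, with read shares of 52.9, 46.2, 47.7 and 47.9% (mean 48.7 ± 2.95%, SD, n = 4). The first 3 had every member called and tumour 21 had 20, starting at 50175020. The missense member p.Thr946Ala of Sorcs1 was at 52, 33.33, 45.71 and 49.15% in these tumours. Among the other genes of chromosome 19, Atrnl1, an attractin-like membrane protein, had p.Glu1309Lys in 12 tumours at 33.9 to 52.46% (median 43.405). Of these, 11 had titles 1601 to 1628 and 1 had a title from 1501 to 1592. The Sfr1 deletion was called in tumours 7, 9, 10, 16, 29, 38 and 42 at 61.19 to 81.91% (median 75), above an even split in every one.

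Segment 1 on chromosome 14 (64022286 to 70240554) joined 5 members, 2 of them SNVs, called in 34 to 44 tumours each and was carried by 44 of 44. Variants called in nearly all tumours meet the overlap limit whatever their linkage. The joining rule and the carriage by 44 thus do not show that these 5 form a run. It holds a missense change of Rp1l1, a photoreceptor protein related to RP1, at 64022286 inside the gene (63992431 to 64033506). All 44 tumours had this variant, at 38.24% at the lowest, 47.05% at the median and 66.67% at the highest (mean 48.4 ± 6.43%, SD, n = 44). A 4-base deletion in the 5' UTR of Dpysl2 in the same segment was also in all 44, at a median of 70.7% and a range of 48.28 to 93.75%. R3hcc1, between members of the segment at 69697596, had a missense change in 25 tumours at 21.05 to 66.67% (median 47.37), 11 of them with titles 1601 to 1628, 14 with titles 1501 to 1592 and none with titles 1199 to 1293. Zfhx2, a homeobox gene, had p.Leu2390Phe in tumours 24 and 36 at 46.15 and 41.46%.

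Eif4g1 encodes the scaffold of the complex that brings mRNA caps to the ribosome. Its missense variant, a C-to-T change at 20679849 of chromosome 16 inside the gene (20672720 to 20692883), was called in 44 of 44 tumours. The read share was 36.36% at the lowest, 46.9% at the median and 60.29% at the highest (mean 48.1 ± 6.66%, SD, n = 44). The site lies 1.42 Mb beyond the excluded lambda locus and belongs to no segment. An in-frame deletion in the olfactory receptor gene Olfr1420 on chromosome 19 was likewise in all 44 tumours (39.13, 49.015 and 59.3% at the lowest, median and highest). With R3hcc1 these are the 4 protein-altering variants found in over 22 tumours, and no call of any of them lay outside 21.05 to 66.67%. Most of the 26 widely carried members were non-coding and 13 were indels. A deletion of 32 bases in an intron of Acap2 at 31105358, just before the common start of the chromosome 16 blocks, was in 38 tumours at 98.55 to 100%.

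**Figure D4:**
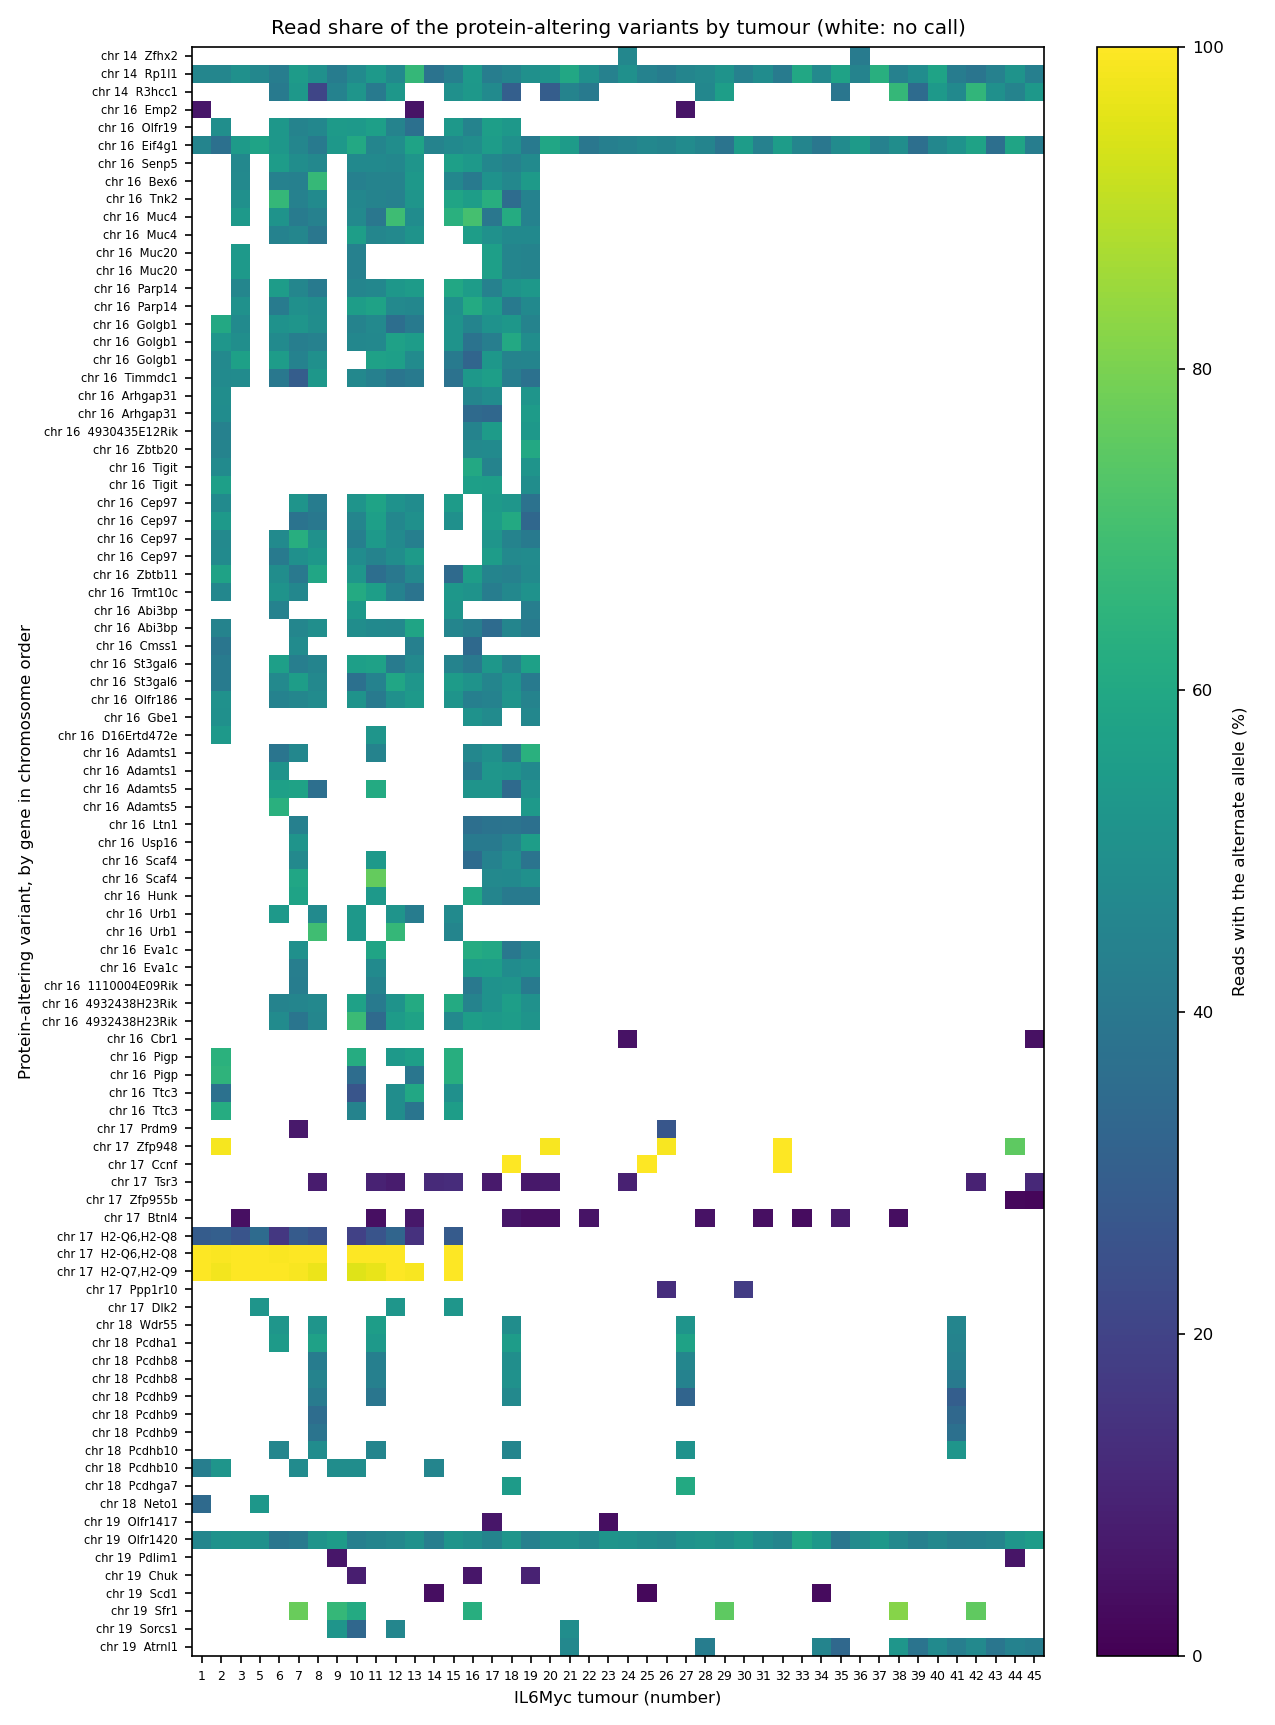
Read share (% of reads with the alternate allele, colour) of the protein-altering variants reported here (rows, by chromosome and gene) in each of the 44 tumours (columns, by number); white means no call. The rows of Rp1l1, Eif4g1 and Olfr1420 are filled across all tumours, the chromosome 16 rows other than Emp2, Olfr19, Eif4g1 and Cbr1 have calls only in tumours with blocks, the H2-Q rows of chromosome 17 stop after tumour 15, and rows under 20% are dark.

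Protein-altering members numbered 92 (6.17% of 1492), against 7.17% of the 11277 shared variants on other chromosomes, and fell in 69 genes. Of these genes 39 lay on chromosome 16, 12 on chromosome 17, 8 on chromosome 19, 7 on chromosome 18 and 3 on chromosome 14. Genes altered in over 22 tumours numbered 4, in 6 to 22 tumours 34, and in 2 to 5 tumours 31. Of the B cell and plasma cell genes listed, 0 of the 19 that lie on these chromosomes had a protein-altering member, and of the tumour suppressors and oncogenes 0 of 27. Of all 3805 protein-coding RefSeq genes on these chromosomes 67 had one (1.76%), and the lists are too short to be told apart from that share by their counts of 0 and 1. Of the genes of the major histocompatibility complex and complement 2 of 34 did (H2-Q6 and H2-Q7), of the NF-kB and JAK genes 1 of 10 (Chuk), and of the translation factors 1 of 8 (Eif4g1). By family, protocadherins gave 5 altered genes, olfactory receptors 4, mucins 2 and zinc finger genes named Zfp 2.

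Some altered genes rested on low read shares. In 11 of the 92 protein-altering members the median read share was under 20%, and read depth is unknown, so the number of reads behind them cannot be given. The frameshift of Scd1, the stearoyl-CoA desaturase, was at 3.83, 2.26 and 2.75% in tumours 14, 25 and 34. The stop gain of Pdlim1, a cytoskeletal adaptor, was at 6 and 5.48% in tumours 9 and 44. Chuk, the kinase IKK alpha of the non-canonical NF-kB pathway, had a missense change at 8.57, 5.88 and 9.62% in tumours 10, 16 and 19. Btnl4, a butyrophilin-like gene, had a missense change in 12 tumours at 3.15 to 7.14% (median 4.185), and Tsr3, a modifier of ribosomal RNA, had a missense change in 11 at 6.25 to 12.5% (median 9.3). None of these calls reached 20% in any tumour, so they stand apart from the segment variants. Also under 20% at the median were Emp2 (tumours 1, 13 and 27), Cbr1 (24 and 45), Ppp1r10 (26 and 30), Zfp955b (44 and 45) and Olfr1417 (17 and 23), none of which the rule for named genes picked. The Prdm9 deletion, at 6.96 and 26.59% in tumours 7 and 26, was low in the first. The opposite was seen on chromosome 17 for a missense change of Ccnf (cyclin F), at 100% in tumours 18, 25 and 32, and for the Zfp948 deletion, at 98.46, 99.02, 99.04, 100 and 75% in tumours 2, 20, 26, 32 and 44. Members with a median share of at least 90% were 30 of 136 on chromosome 17 (22.1%), 18 of 94 on chromosome 19 (19.1%), 14 of 108 on chromosome 14 (13%), 10 of 101 on chromosome 18 (9.90%) and 13 of 1053 on chromosome 16 (1.23%).

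Away from chromosome 16 and outside segments, 82 members were called in 6 to 22 tumours, of which 48 were SNVs. In 22 of them the median read share was under 20% and in 18 it was at least 90%. Of the 82, 10 were called in no tumour with titles 1601 to 1628, and 1 in no tumour with titles 1501 to 1592. Examples chosen after their values were seen were an intronic SNV of Ablim1, an actin-binding protein, in 0 tumours with titles 1601 to 1628, 10 with titles 1501 to 1592 and 3 with titles 1199 to 1293, and one of Taf11, a subunit of the TFIID complex, in 0, 8 and 4. A pair of adjacent SNVs of Ms4a6b, at 11521600 and 11521601 of chromosome 19, was in the same 21 tumours at 2.91 to 8.85%.

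Adjacent SNVs were called together throughout the set. There were 23 pairs of members 1 base apart, all 23 with the same carriers, and the median difference in read share between partners was 0 in each. In Muc20 such a pair was annotated as 2 missense changes of 1 residue in tumours 3, 10, 17, 18 and 19, with equal shares of 54.01, 43.92, 56.55, 45.45 and 44.59%. In this pair each change is thus annotated alone although both bases lie in 1 codon. Most of the other pairs were intronic or intergenic. Muc20 was chosen after its values were seen.

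Carriage of the segments was compared between the larger title series with Fisher's exact test (two-sided, Benjamini-Hochberg over 12 segments), and 4 of 12 segments (33.3%) differed at an adjusted p below 0.05. Segments 2 and 5 were each carried by 0 of 22 tumours with titles 1601 to 1628 and by 12 of 18 with titles 1501 to 1592 (adjusted p = 1.99e-05 for both). Segment 8 was carried by 0 of 22 and 6 of 18 (adjusted p = 0.0145), and segment 10 by 0 of 22 and 8 of 18 (adjusted p = 0.00228). Segments 9 and 12, at 0 of 22 and 4 of 18, did not pass (adjusted p = 0.067 for both), nor did segments 3 and 6, at 0 of 22 and 3 of 18 (adjusted p = 0.124 for both), segment 4, at 0 of 22 and 2 of 18 (adjusted p = 0.262), or segment 7, at 0 of 22 and 1 of 18 (adjusted p = 0.491). Segment 11, at 2 of 22 and 4 of 18 (adjusted p = 0.457), did not pass either, and segment 1 was in every tumour. Of the 4 tumours with titles 1199 to 1293, 4 carried segment 10. The tests are not independent of each other, since the chromosome 16 segments share carriers. They also take tumours as independent, and whether the mice were related is not known. With a Jaccard index of 0.5 in place of 0.7 the number that differed was 2, and with 0.9 it was 8.

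Per tumour, the members were set against the 11277 shared variants on other chromosomes (paired permutation test over 44 tumours, two-sided, 100000 resamples, adjusted over 3 measures). The same variants recur in many tumours, and the p-values do not allow for that. The median read share of SNVs was 43.8 ± 5.87% for the members and 48.1 ± 1.57% for the other shared variants (SD, n = 44), a difference of -4.28 points (adjusted p = 9e-05), with the members higher in 15 tumours and lower in 28. Within titles 1601 to 1628 it was 40.03 ± 5.59% and 47.9 ± 1.72% (n = 22, higher in 2, lower in 20), and within titles 1501 to 1592 it was 47.5 ± 3.02% and 48.5 ± 0.704% (n = 18, higher in 10, lower in 7). Within titles 1199 to 1293 it was 47.96 ± 3.91% and 47.1 ± 3.02% (n = 4, higher in 3), so the members were not lower in most tumours of the 2 smaller series. With calls under 20% left out the difference was 0.0792 points (adjusted p = 0.865), so it did not hold without them. This limit acts on the measure that is compared. It therefore shows only that the difference depends on calls of low share. Calls under 20% made up 5.09% of the calls of members and 3.86% of those of the other shared variants. These shares pool the calls of all tumours, and 7713 of the 10457 calls of members were on chromosome 16. They therefore do not give the share of low calls in tumours without chromosome 16 blocks.

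The share of calls that alter a protein was 8.86 ± 2.23% for the members and 7.68 ± 0.492% for the other shared variants (SD, n = 44), a difference of 1.19 points (adjusted p = 0.0031), with the members higher in 25 tumours and lower in 19. Within titles 1601 to 1628 the values were 9.62 ± 2.07% and 7.53 ± 0.523% (n = 22, higher in 18), and within titles 1501 to 1592 they were 7.79 ± 1.84% and 7.75 ± 0.390% (n = 18, higher in 5). Within titles 1199 to 1293 they were 9.52 ± 3.20% and 8.18 ± 0.405% (n = 4, higher in 2). With SNVs only the difference was 3.818 points (adjusted p = 3e-05), and without chromosome 16 it was 1.922 (adjusted p = 4.5e-05). Leaving out variants in over 22 tumours turned the sign (-1.137 points, adjusted p = 0.017). Eif4g1, Rp1l1 and Olfr1420 are among those left out, and each gives a protein-altering call in every tumour. The test thus counts the same few variants again in each tumour, and its p-value does not allow for that. Counted once per variant, the direction was the opposite, at 6.17% of members against 7.17% of the other shared variants. Transitions made up 72.6 ± 5.54% of SNV calls of the members and 71.9 ± 0.536% of those of the other shared variants, and the difference of 0.686 points did not pass (adjusted p = 0.421, higher in 28 tumours, lower in 16). Members gave 44 to 718 calls per tumour (median 66), so a single variant weighs more in tumours without chromosome 16 blocks.

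**Figure D5:**
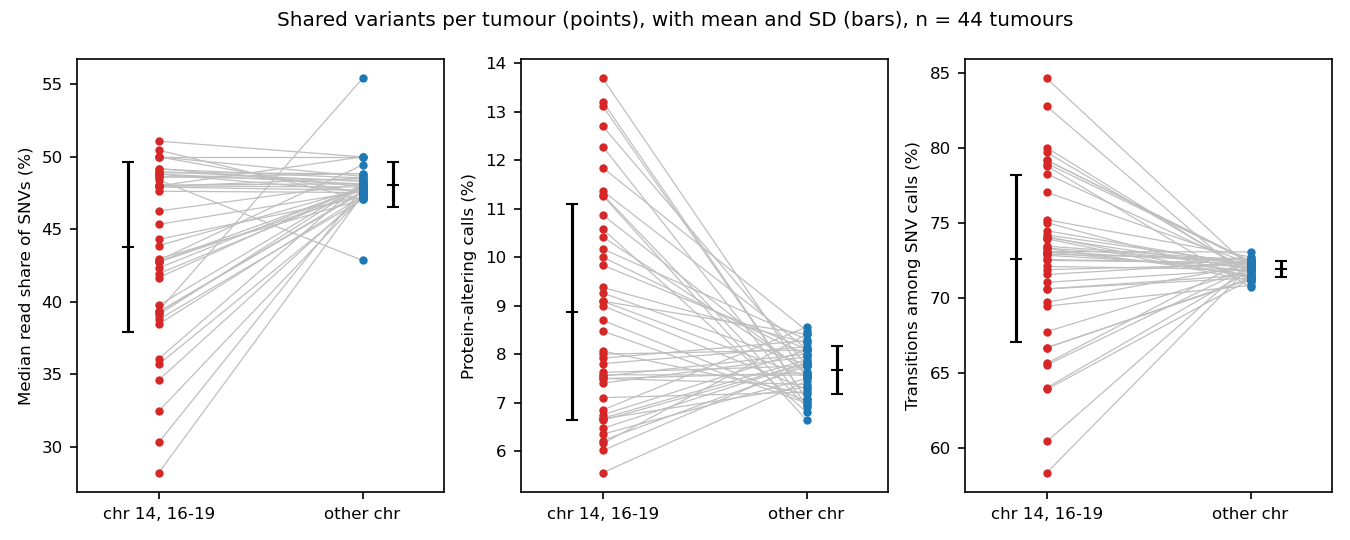
Values per tumour (points, joined by lines) for the members (left of each panel, red) and the shared variants on other chromosomes (right, blue), with mean and SD (black bars, n = 44). The panels show the median read share of SNVs (%), protein-altering calls (%) and transitions among SNV calls (%), and the members are more widely spread in each of them.

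Read shares within a tumour were set against those of the other carriers of the same SNVs, per chromosome, where a tumour had at least 10 of them. Of 73 such pairs of tumour and chromosome, 18 differed by at least 5 points, 15 lower and 3 higher. On chromosome 16, all 14 tumours with blocks lay within -1.18 to 1 point of the other carriers, over at least 189 SNVs each. Among the 27 pairs with at least 20 SNVs, 2 differed by that much. On chromosome 17, tumour 8 had a median of 31.25%, against 49.62% in other carriers of its 21 SNVs. Its shares there lay far apart, such as 7.69% in Tsr3 and a median of 98.61% in segment 10. A median over so few SNVs can shift far with small changes. On chromosome 19, tumour 9 had 53.85%, against 48.685% for its 33 SNVs. No test was made of these differences.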

How the data were processed

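Exome variant calls of IL6Myc tumours from the mesenteric lymph node were used as deposited. The labels' protocols name the Qiagen DNeasy kit and the Agilent SureSelect mouse exon capture of 50 Mb. The submitters' processing notes name GATK and mm10. Aligner, filters, versions and the role of the kidneys in calling are not stated there.

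The authors deposited 1 table that gives a percent per tumour, taken here to be the share of reads with the alternate allele, and a count of tumours called. A dot is no call and can mean the reference base or too few reads. Per-sample depth is unknown, and no interval was set around a share. Of 25823 rows, 199 that hold several alleles were left out.

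Protein-altering classes follow the deposited annotation (missense, in-frame, frameshift, start, stop and essential splice changes), which gives no protein change for 1 of the 2 Pigp variants called missense. Results for 2 of the altered genes are not reported here. Of the 69 altered genes, 67 matched RefSeq (GRCm38.p6).

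Segments, carriers and tests are defined where first used, and the segment search was tested on simulated data. Named genes were Eif4g1, Rp1l1, the 6 genes per chromosome altered in most tumours, genes with truncating, stop or start changes, and altered genes on 5 lists. The members, segments and lists were chosen with earlier results of these data known. Each tumour is 1 sample. Paired p-values refer to differences per tumour, and Fisher p-values to carriage by title series. The tests take tumours as independent, although tumours share many variants and whether their mice were related is not known. Alternatives were calls of at least 20%, SNVs only, other carrier limits, other segment rules and chromosome 16 left out. Python 3.11.15, pandas 2.3.3, numpy 2.4.6 and scipy 1.17.1 were used.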

Additional observations from a re-analysis of the deposited data

How the results depend on the processing

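The share of members inside segments (60.46% as reported) was 66.96% with SNVs only, 65.23% with calls of at least 20%, 71.31% with members in 3 or more tumours, 70.84% and 50.54% at a Jaccard index of 0.5 and 0.9, and 16.17% with chromosome 16 left out, an alternative chosen after seeing the data. The number of segments was 12 as reported, 8 and 21 at a Jaccard index of 0.5 and 0.9, 4 without chromosome 16 and 10 to 14 under the other rules, and altered genes numbered 69 as reported and 30 without chromosome 16. The number of segments that differ between title series was 4 as reported, 2 at a Jaccard index of 0.5 and 8 at 0.9. For these the rule itself sets which members are joined or kept.

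The read share difference turned to 0.0792 points with calls of at least 20% (adjusted p = 0.865), and under the other 4 alternatives it kept its direction and passed, from -13.35 points without variants in over 22 tumours to -2.572 with members in 3 or more. The protein-altering difference (1.186 points as reported) was 3.818 with SNVs only (adjusted p = 3e-05) and 1.922 without chromosome 16 (adjusted p = 4.5e-05), and turned to -1.137 without variants in over 22 tumours (adjusted p = 0.017). The transition difference was 2.465 with calls of at least 20% (adjusted p = 0.0434), -5.277 without variants in over 22 tumours (adjusted p = 0.00072) and -2 without chromosome 16 (adjusted p = 0.0791). The cause was not tested. Pairs of tumour and chromosome that differ by 5 points numbered 18 with at least 10 SNVs and 2 with at least 20, a limit added after seeing the data.

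Eif4g1 and Rp1l1 were altered in 44 tumours also with calls of at least 20%. No paired analysis was possible between groups of tumours because the labels give no replicate numbers that tumours share across them, and the paired tests reported here set variants against variants within a tumour. Unknown depth limits every missing call, and tumours without normal tissue of the same mouse give no measure of what was inherited.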
